A study of Homo sapiens with 9 samples.

Results

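The genes of the respiratory chain and ATP synthase were examined in TC-32, an established human Ewing sarcoma cell line that carries the EWSR1::FLI1 fusion. Members were taken by gene symbol (mitochondrial ND, CO, CYB and ATP genes; nuclear NDUF, SDH, UQCR, COX4 to COX8 and ATP5 genes) and selected on their mean level over the 9 libraries, which had to reach 1 CPM (counts per 1000000 counts). Of 58381 genes in the table, 91 were kept: all 13 protein genes of the mitochondrial genome and 78 nuclear genes. The nuclear genes comprised 37 listed under complex I, 4 under complex II, 9 under complex III, 11 under complex IV and 17 under complex V. A further 9 matching nuclear symbols lay under the threshold. The nearest were NDUFA4L2 at 0.69 CPM and COX6B2 at 0.16 CPM, while the lowest kept were ATP5S at 15.2 CPM and UQCRHL at 15.9 CPM. All 91 members passed the filter on low counts, and 17235 genes were tested in all.

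There were 3 groups of 3 libraries. RFP cells carried the pLOC lentiviral vector with a red fluorescent protein, ETS1-Low cells carried pLOC with a synthetic human ETS1 cDNA at a lower level, and ETS1-High cells carried the same construct at a higher level. The study set the high level to match that seen in cells depleted of EWSR1::FLI1, and addressed which genes ETS1, a transcription factor, controls in the presence of that fusion. All groups retained the fusion, and transduced cells went through puromycin selection and sorting of single cells, per the labels' protocols. The labels do not give the number of clones behind a group, nor whether RFP is a clone, so a clone's own state and its ETS1 level cannot be told apart. Nothing states that the 3 libraries of a group came from separate cultures, so p-values measure the spread between libraries.

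The respiratory chain passes electrons from NADH (complex I) or succinate (complex II) through complexes III and IV to oxygen, and the proton gradient so formed drives ATP synthase (complex V). Its subunits come from both genomes, except those of complex II, which are all nuclear. The mitochondrial genes are read as long polycistronic transcripts, with all but MT-ND6 among the protein genes on the heavy-strand transcript. Most, but not all, are cut apart at tRNAs between them. The nuclear genes have separate promoters, many of which hold sites for NRF1 and for GABP, a factor of the same ETS family as ETS1.

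The promoter sequences printed below do not all hold the same motifs. The windows below are the 150 bases before the RefSeq start (GRCh38.p14) of 3 complex II genes, which moved in different directions, and of UQCRQ and ATP5C1, described further on. They are read 5′ to 3′ on the gene's strand, with capitals for the ETS core CCGGAAG or the NRF1 motif (GCGCA, any base, GCGC), searched on both strands.
SDHA: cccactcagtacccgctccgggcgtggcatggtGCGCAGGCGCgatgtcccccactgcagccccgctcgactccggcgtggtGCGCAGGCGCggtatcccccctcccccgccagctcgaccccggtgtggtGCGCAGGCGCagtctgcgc
SDHB: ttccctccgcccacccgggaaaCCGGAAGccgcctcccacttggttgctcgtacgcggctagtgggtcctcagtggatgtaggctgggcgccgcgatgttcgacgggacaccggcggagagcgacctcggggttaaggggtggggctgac
SDHD: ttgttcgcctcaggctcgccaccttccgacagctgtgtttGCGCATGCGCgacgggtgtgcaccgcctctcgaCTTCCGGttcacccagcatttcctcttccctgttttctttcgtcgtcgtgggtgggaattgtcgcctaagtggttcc
UQCRQ: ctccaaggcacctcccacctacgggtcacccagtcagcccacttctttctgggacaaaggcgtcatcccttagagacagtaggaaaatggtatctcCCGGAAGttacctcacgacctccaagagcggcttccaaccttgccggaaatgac
ATP5C1: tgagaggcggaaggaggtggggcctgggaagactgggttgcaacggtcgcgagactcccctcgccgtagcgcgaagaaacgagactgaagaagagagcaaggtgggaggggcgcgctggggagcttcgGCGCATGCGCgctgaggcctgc

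SDHA (chr5:218170-218319, plus strand) held the NRF1 motif 3 times and no ETS core. SDHB (chr1:17054033-17054182, minus strand) and UQCRQ (chr5:132866492-132866641, plus strand) each held 1 ETS core. SDHD (chr11:112086723-112086872, plus strand) held 1 of each, the ETS core on the opposite strand, and ATP5C1 (chr10:7788027-7788176, plus strand) held 1 NRF1 motif. A match is a description of letters, not of a bound site.

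The libraries totalled between 39484704 and 46654734 counts. ETS1 itself, the introduced gene, lay between 1.81 and 2.15 CPM in RFP, 10.3 and 10.9 CPM in ETS1-Low and 18.2 and 19.7 CPM in ETS1-High, in the order of the labels. All 10 Ewing sarcoma markers listed for the check of cell type exceeded 1 CPM in every group. Their summed level lay between 2754 and 2803 CPM in RFP and between 4140 and 4216 CPM in the ETS1 groups. Fibroblast markers summed to between 376 and 419 CPM in RFP, 381 and 389 CPM in ETS1-Low and 522 and 562 CPM in ETS1-High. Of these 10 fibroblast markers, 6 reached 1 CPM in RFP, 5 in ETS1-Low and 6 in ETS1-High. LUM and FAP were at 0 in RFP, COL1A2 and LUM in ETS1-Low, and none in ETS1-High. Of 8 haematopoietic markers, at most 2 reached 1 CPM in any group, with CD3E at 0 throughout. Of 8 epithelial markers, 2 or 3 reached 1 CPM, with sums of 83.8 to 87.1 CPM in RFP, 152.1 to 159.4 in ETS1-Low and 111.1 to 112.0 in ETS1-High. The part of these shifts in the results below was not tested.

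The 2 genomes moved apart in the ETS1 groups. The 13 mitochondrial genes took 4.43%, 4.50% and 4.41% of all counts in the RFP libraries, 5.15%, 5.34% and 4.99% in ETS1-Low, and 4.93%, 5.50% and 5.03% in ETS1-High. Both ETS1 groups lay above every RFP library and overlapped each other. The 78 nuclear genes took 0.843%, 0.844% and 0.858% in RFP, 0.825%, 0.829% and 0.815% in ETS1-Low, and 0.740%, 0.755% and 0.758% in ETS1-High. Here the 3 groups did not overlap, and ETS1-High was lowest. In bulk RNA, fewer transcripts per cell and fewer cells holding them cannot be told apart.

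The ratio of mitochondrial to nuclear counts within a library does not depend on the scaling between libraries. It was 5.25, 5.33 and 5.13 in RFP, 6.24, 6.44 and 6.12 in ETS1-Low, and 6.66, 7.29 and 6.64 in ETS1-High. The groups did not overlap, although the second ETS1-High library stood apart from the other two. The mean ratio was 1.31 times that of RFP in ETS1-High and 1.20 times in ETS1-Low, and ETS1-High was 1.09 times ETS1-Low. On the log2 scale ETS1-High exceeded ETS1-Low by 0.13, or by 0.09 without the second ETS1-High library. No p is given for these sums, since the members were chosen with earlier results known.

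**Figure D1:**
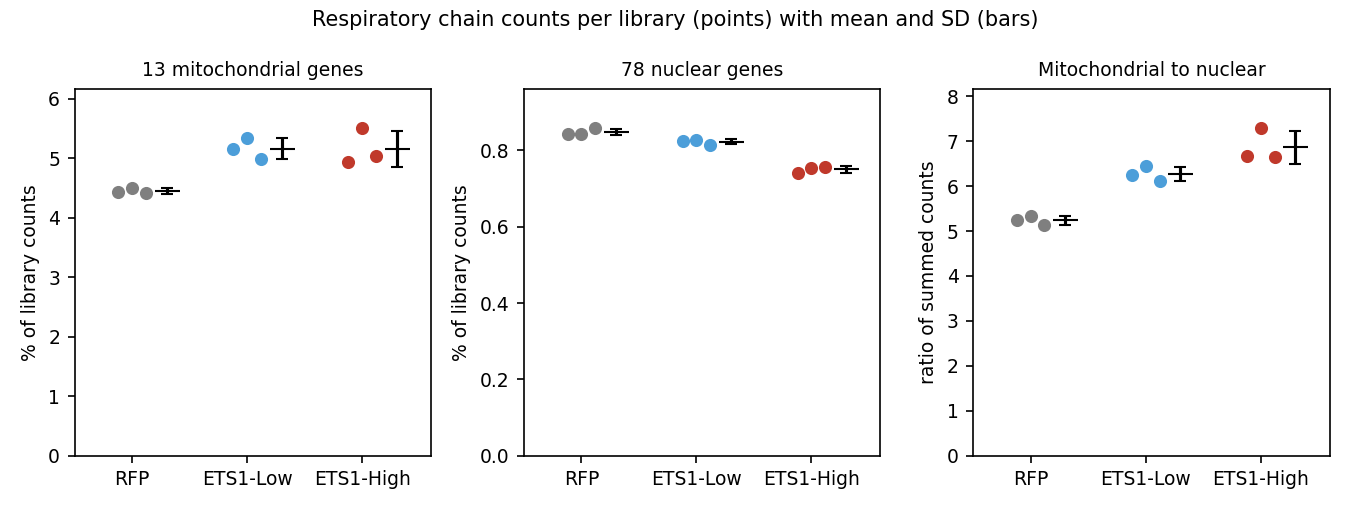
Share of library counts (%) taken by the 13 mitochondrial genes (left) and the 78 nuclear genes (middle), and the ratio of their summed counts (right). Points are libraries and bars are the mean with SD (n = 3). The mitochondrial share separates RFP from both ETS1 groups, the nuclear share is lowest in ETS1-High, and the ratio runs from 5.13 to 7.29 in the order RFP, ETS1-Low, ETS1-High.

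By complex, the ratio did not move alike. For complex I it was 5.54 ± 0.07 in RFP, 7.44 ± 0.22 in ETS1-Low and 7.71 ± 0.48 in ETS1-High (SD, n = 3). For complex IV it was 17.5 ± 0.50, 22.2 ± 0.44 and 24.5 ± 1.02. For complex V it was 1.41 ± 0.02, 1.47 ± 0.05 and 1.75 ± 0.12. Complex III, with MT-CYB as its only mitochondrial subunit, went from 2.16 ± 0.04 in RFP down to 1.98 ± 0.05 in ETS1-Low and up to 2.80 ± 0.11 in ETS1-High. Complex III was thus the only complex whose ratio was below RFP in ETS1-Low, at 0.91 times. Per unit length, the deposited FPKM values of the mitochondrial members summed to between 76050 and 77731 in RFP, 82438 and 89343 in ETS1-Low and 83126 and 93863 in ETS1-High. The nuclear FPKM sums lay between 12856 and 13029, 12093 and 12390, and 10782 and 11170.

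Mitochondrial messages rose against RFP in both ETS1 groups. In ETS1-High, 12 of the 13 were called higher and none lower at an adjusted p under 0.05 (edgeR), where 74.2% of all genes were called, 37.0% higher and 37.2% lower. Their median log2 change was 0.27, beside a median of -0.01 over all genes. In ETS1-Low, 11 of 13 were called higher and none lower, where 74.1% of all genes were called, 37.9% higher and 36.2% lower, and the median was 0.34. The same RFP libraries served both comparisons. In ETS1-High the call for MT-CYB rests on the counts: on the log2(FPKM + 1) scale its change was 0.08 and missed the threshold.

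MT-ND1, a core subunit of complex I in the membrane arm (mitochondrial genome, 3307 to 4262), rose most. Its levels were 2128, 1995 and 1959 CPM in RFP, 3329, 3449 and 3172 CPM in ETS1-Low, and 3132, 3682 and 3139 CPM in ETS1-High. Every ETS1 library exceeded every RFP library, and the ETS1 groups overlapped. The log2 change was 0.71 (SE 0.07) in each group, a 1.64-fold rise, with adjusted p of 6.26e-05 for ETS1-High and 6.25e-05 for ETS1-Low (edgeR). MT-ND3, another complex I subunit, came next, at 474 ± 20 CPM for RFP, 687 ± 38 CPM for ETS1-Low and 683 ± 37 CPM for ETS1-High (SD, n = 3). It changed by 0.53 on the log2 scale in both groups.

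The most abundant message by count was MT-CO1, which encodes the catalytic subunit of complex IV. It read 13095, 13212 and 12612 CPM in RFP, 16220, 16911 and 15999 CPM in ETS1-Low, and 15206, 16574 and 15011 CPM in ETS1-High. That is a log2 change of 0.27 (SE 0.03; adjusted p 2.24e-09, edgeR) in ETS1-High and 0.34 in ETS1-Low, with no overlap with RFP. The other complex IV subunits, MT-CO2 and MT-CO3, changed by 0.40 and 0.23 in ETS1-High and by 0.38 and 0.26 in ETS1-Low. Among the remaining complex I genes, MT-ND2 changed by 0.46 and 0.48, MT-ND5 by 0.40 and 0.33, MT-ND4 by 0.30 and 0.42, and MT-ND4L by 0.27 and 0.39, in ETS1-High and ETS1-Low in that order. All of these passed the test. MT-ND5 in ETS1-Low did not pass with library totals alone (0.20; adjusted p 0.0637, edgeR).

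Of the subunits of ATP synthase made in mitochondria, MT-ATP6, which forms part of the proton channel, changed by 0.27 in ETS1-High and 0.23 in ETS1-Low. The latter did not pass with library totals alone (0.093; adjusted p 0.0539, edgeR) or on FPKM (0.080; adjusted p 0.13, limma). MT-ATP8 changed by 0.22 (adjusted p 0.0119, edgeR) and 0.17 (adjusted p 0.0348, edgeR). Its call is not firm: with upper-quartile factors the adjusted p was 0.0562 in ETS1-High and 0.127 in ETS1-Low, and it was lost without RFP replicate 2 in both groups (0.0638 and 0.137, edgeR). In ETS1-Low it was also lost without RFP replicate 1 (0.106), ETS1-Low replicate 1 or 2 (0.0772 and 0.0732) or ETS1-High replicate 3 (0.052), and on FPKM its change was -0.02. MT-ATP8 overlaps MT-ATP6, and MT-ND4L overlaps MT-ND4, so reads in the overlap are divided by the counting. Expected counts of 8 of the 13 genes were not whole numbers in any library.

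MT-CYB and MT-ND6 were the exceptions. MT-CYB, the haem-carrying core of complex III (14747 to 15887), read 2337, 2243 and 2302 CPM in RFP, 2311, 2309 and 2171 CPM in ETS1-Low, and 2473, 2775 and 2580 CPM in ETS1-High. ETS1-Low overlapped RFP, while ETS1-High lay above both. The log2 change was 0.19 (SE 0.03) in ETS1-High and -0.02 in ETS1-Low. Scaling by library totals alone, ETS1-Low was lower than RFP by 0.15 (log2 change -0.15; adjusted p 4.34e-05, edgeR). MT-ND6, the light-strand gene (14149 to 14673), read 302, 212 and 149 CPM in RFP, 123, 202 and 219 CPM in ETS1-Low, and 182, 199 and 103 CPM in ETS1-High. The groups overlapped widely and no difference passed the test, with log2 changes of -0.46 (SE 0.38) and -0.28 (SE 0.38).

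Ribosomal RNA of the same genome followed neither pattern. MT-RNR2, the large rRNA, lies just before MT-ND1 on the heavy-strand transcript. It read 13880, 14364 and 13269 CPM in RFP, 20265, 21623 and 19724 CPM in ETS1-Low, and 15462, 16419 and 15267 CPM in ETS1-High. It rose by 0.57 in ETS1-Low and by 0.18 in ETS1-High, and fell by 0.39 from ETS1-Low to ETS1-High (SE 0.04; adjusted p 1.54e-12, edgeR). MT-RNR1, the small rRNA, changed by -0.27 (SE 0.09; adjusted p 0.0344, edgeR) in ETS1-High and by -0.08 in ETS1-Low, where it did not pass. Libraries made with poly-A selection see rRNA only in part, so these are levels of captured RNA. Of 7 nuclear pseudogene copies of mitochondrial genes in the table, 2 held any counts, each below 0.1 CPM in every library.

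**Figure D2:**
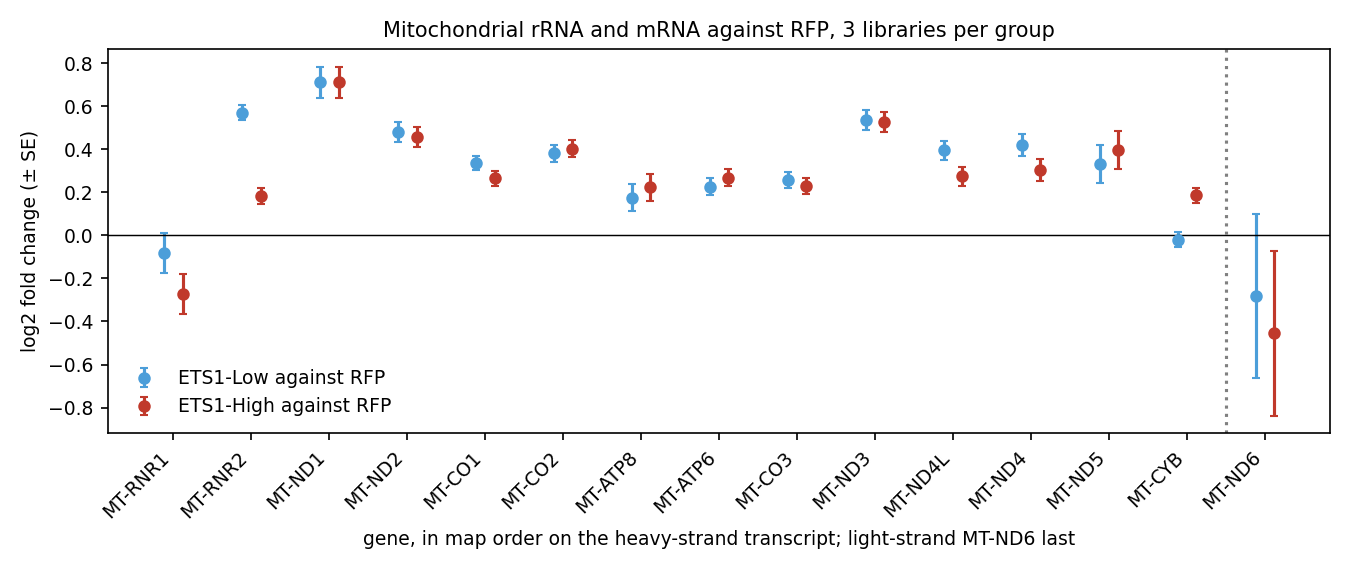
Log2 fold change against RFP (points, with SE) of the 2 mitochondrial rRNAs and 13 mitochondrial messages in ETS1-Low and ETS1-High, in map order with the light-strand gene MT-ND6 last. Heavy-strand messages from MT-ND1 to MT-ND5 lie above 0 in both groups, MT-CYB only in ETS1-High, and MT-RNR2 is farther up in ETS1-Low (0.57) than in ETS1-High (0.18).

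Between the ETS1 groups the mitochondrial messages differed little. In ETS1-High against ETS1-Low, MT-CYB was called higher (log2 change 0.21, SE 0.03; adjusted p 3.14e-06, edgeR) and MT-ND4L lower (-0.12), while 11 did not pass, where 59.2% of all genes were called. The median change was -0.01. MT-ND4L overlapped between the groups and lost its call in 6 of the 9 fits that left out a library, with adjusted p of 0.0776 to 0.115 (edgeR). Without the second ETS1-High library, 6 messages were called, 1 higher and 5 lower: MT-CO1, MT-CO3, MT-ND2 and MT-ND4 joined with log2 changes from -0.17 to -0.08. Leaving out any other library gave 1 to 3 calls.

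The nuclear members split in ETS1-High, rose more often than they fell in ETS1-Low, and were mostly lower in ETS1-High than ETS1-Low. Against RFP, ETS1-High had 25 members called higher and 37 lower of 78, beside 37.0% and 37.2% of all genes, and ETS1-Low had 44 higher and 22 lower, beside 37.9% and 36.2%. The medians were -0.06 and 0.16. In ETS1-High against ETS1-Low, 8 were called higher and 54 lower, where 29.9% of all genes were called higher and 29.3% lower, and the median was -0.16 beside 0.00 over all genes. The lowest group mean fell in ETS1-High for 42 of the 78, in RFP for 31 and in ETS1-Low for 5. No member changed by as much as 2-fold in any comparison. The highest was SDHA at 0.98 and the lowest NDUFS4 at -0.78, both in ETS1-High against RFP.

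Counts against RFP depend on scaling. With library totals alone, the median of all genes shifted by -0.10 in ETS1-High and -0.13 in ETS1-Low, and the split became 19 higher and 48 lower in ETS1-High and 33 higher and 34 lower in ETS1-Low. On the deposited FPKM values (limma on log2(FPKM + 1)) it was 18 and 50, and 26 and 31. With upper-quartile factors it was 22 and 43, and 41 and 26. Relative to the median of all genes, 34 members lay above and 44 below in ETS1-High, and 51 above and 27 below in ETS1-Low. On FPKM these were 28 and 50, and 47 and 31. Between the ETS1 groups the calls split into 11 higher and 51 lower with library totals and 10 and 41 on FPKM. The mitochondrial messages above the median of all genes numbered 12 in ETS1-High and 11 in ETS1-Low with TMM and on FPKM.

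**Figure D3:**
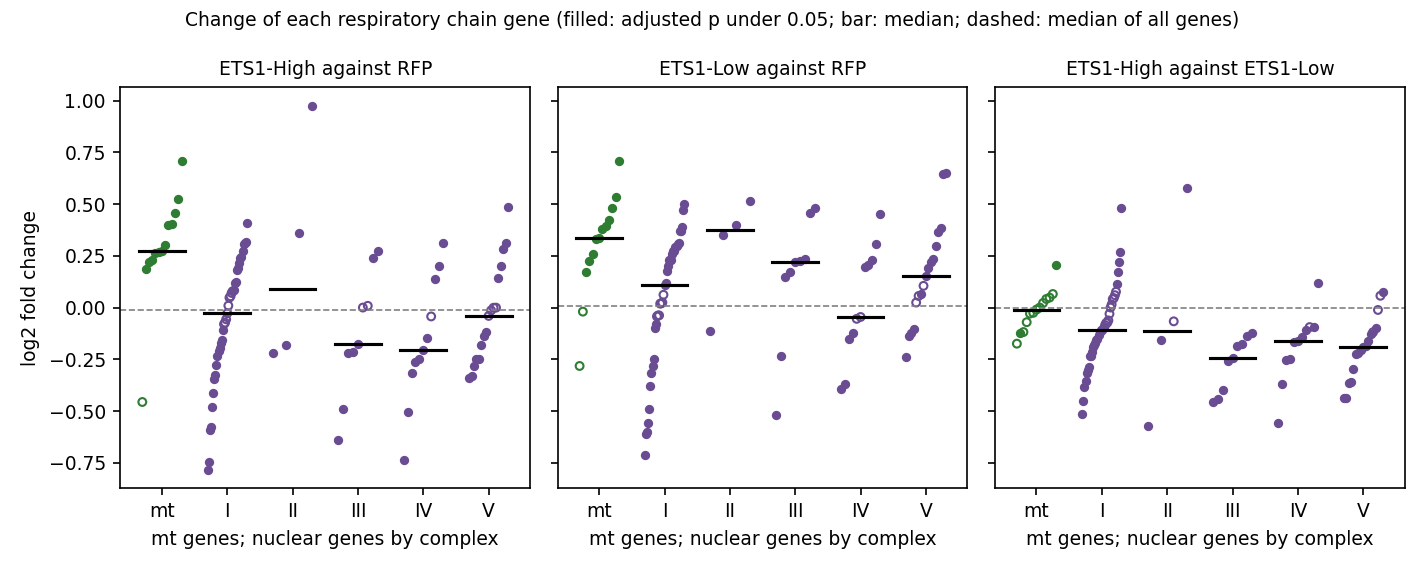
Log2 fold change of each member in the 3 comparisons. Green points are mitochondrial genes, purple points are nuclear genes by complex, filled points passed an adjusted p under 0.05, bars are medians and the dashed line is the median of all genes. In ETS1-High against RFP the mitochondrial median (0.27) sits above the medians of the nuclear complexes, and between the ETS1 groups the nuclear medians of all 5 complexes are below 0.

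Complex I takes electrons from NADH. Counts by complex, here and below, stand beside the shares called over all genes. These were 37.0% higher and 37.2% lower in ETS1-High, 37.9% and 36.2% in ETS1-Low, and 29.9% and 29.3% between the ETS1 groups. Of the 37 nuclear members of complex I, 13 were higher and 15 lower in ETS1-High against RFP, and 19 higher and 11 lower in ETS1-Low. In ETS1-High 75.7% of them were called, near the 74.2% of all genes. In ETS1-High against ETS1-Low 5 were higher and 21 lower. The largest fall was in NDUFS4, an accessory subunit of the electron-input module. NDUFS4 read 54.4, 54.6 and 52.3 CPM in RFP, 35.1, 36.7 and 34.6 CPM in ETS1-Low, and 31.5, 31.7 and 30.6 CPM in ETS1-High. The 3 groups did not overlap, and the log2 change was -0.78 (SE 0.04; adjusted p 5.69e-24, edgeR) in ETS1-High and -0.60 in ETS1-Low. NDUFS6, a zinc-binding subunit of the same module, fell by 0.75 in ETS1-High and by 0.61 in ETS1-Low.

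NDUFB8, a membrane-arm subunit, separated the ETS1 groups. It stood at 77.2, 76.8 and 78.8 CPM in RFP, 74.5, 74.4 and 71.3 CPM in ETS1-Low, and 50.8, 51.7 and 51.9 CPM in ETS1-High. ETS1-High lay far below both other groups, with a log2 change of -0.51 (SE 0.03; adjusted p 1.6e-18, edgeR) against ETS1-Low. The small fall in ETS1-Low (-0.08) was lost without ETS1-Low replicate 3 (adjusted p 0.169) or RFP replicate 3 (0.089, edgeR). NDUFA8 showed the reverse order, at 57.0 ± 2.75 CPM for RFP, 34.7 ± 0.86 CPM for ETS1-Low and 48.5 ± 1.49 CPM for ETS1-High (SD, n = 3). It fell by 0.71 in ETS1-Low and by 0.23 in ETS1-High, and exceeded ETS1-Low by 0.48 in ETS1-High. NDUFA1, a membrane-arm subunit on the X chromosome, also fell further in ETS1-Low (-0.38) than in ETS1-High (-0.11) and rose by 0.27 from ETS1-Low to ETS1-High. Its fall in ETS1-High was lost without the first ETS1-High library (adjusted p 0.216, edgeR).

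Among complex I members that rose, NDUFS8, an iron-sulfur subunit, went from 47.8 ± 0.60 CPM for RFP to 67.7 ± 1.51 CPM for ETS1-Low and 55.5 ± 0.28 CPM for ETS1-High (SD, n = 3). Its changes were 0.50 in ETS1-Low and 0.22 in ETS1-High. NDUFC1 changed by 0.47 and 0.24, and NDUFB7 by 0.39 and 0.32, in the same order. NDUFA7 rose in ETS1-Low (0.37) and fell by 0.45 from there to ETS1-High, with 31.8 ± 0.97, 41.1 ± 0.75 and 30.0 ± 2.89 CPM from RFP to ETS1-Low to ETS1-High. NDUFS1, the largest iron-sulfur subunit, had counts of 132 ± 2.91, 161 ± 1.94 and 175 ± 1.35 CPM, a log2 change of 0.41 in ETS1-High. Its deposited FPKM went the other way, from 50.2 ± 0.64 in RFP to 46.5 ± 1.87 in ETS1-High (log2 change -0.11; adjusted p 0.0122, limma), so the direction for NDUFS1 depends on the unit.

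Complex II, succinate dehydrogenase, links the tricarboxylic acid cycle to the chain and is wholly nuclear. Its 4 subunits did not move together. SDHA, the flavoprotein that binds succinate (chr5:218303-257082 on GRCh38, plus strand), read 151.4, 148.3 and 148.4 CPM in RFP, 202.0, 191.9 and 196.3 CPM in ETS1-Low, and 288.4, 302.8 and 289.9 CPM in ETS1-High. The groups rose in order with no overlap. The log2 change was 0.98 (SE 0.03; adjusted p 8.89e-33, edgeR) in ETS1-High, a 1.97-fold rise, and 0.40 (SE 0.03; adjusted p 1.12e-16, edgeR) in ETS1-Low. ETS1-High exceeded ETS1-Low by 0.58. SDHA has pseudogene copies that could share its reads: SDHAP1 read 13.1 ± 0.69 CPM for RFP and 11.2 ± 0.37 CPM for ETS1-High, and SDHAP3 3.47 ± 0.12 and 3.06 ± 0.05 CPM. Summed with these copies, SDHA still changed by 0.89 in ETS1-High and by 0.34 in ETS1-Low.

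SDHB, the iron-sulfur subunit, read 103.0, 96.8 and 97.4 CPM in RFP, 130.6, 124.5 and 124.5 CPM in ETS1-Low, and 81.7, 88.1 and 85.5 CPM in ETS1-High. ETS1-Low lay above RFP and ETS1-High below it. It rose by 0.35 (SE 0.03) in ETS1-Low and fell by 0.22 (SE 0.03) in ETS1-High, and the step from ETS1-Low to ETS1-High was -0.57 (SE 0.03; adjusted p 1.25e-20, edgeR). SDHC, a membrane anchor, fell from 154.9 ± 3.25 CPM to 143.0 ± 1.59 CPM for ETS1-Low and 136.7 ± 1.11 CPM for ETS1-High, by 0.11 and 0.18. SDHD, the other anchor, rose from 69.3 ± 1.60 CPM to 99.2 ± 2.14 CPM for ETS1-Low and 88.9 ± 1.66 CPM for ETS1-High (SD, n = 3), by 0.52 and 0.36.

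Per unit length, the order of the 4 subunits changed. In RFP the FPKM means were 173.1 for SDHC, 112.4 for SDHB, 80.1 for SDHA and 58.9 for SDHD. In ETS1-High they were 144.1 for SDHA, 130.3 for SDHC, 89.8 for SDHB and 70.7 for SDHD. SDHA thus went from the third to the first of the 4, with SDs of 1.46 in RFP and 3.88 in ETS1-High.

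**Figure D4:**
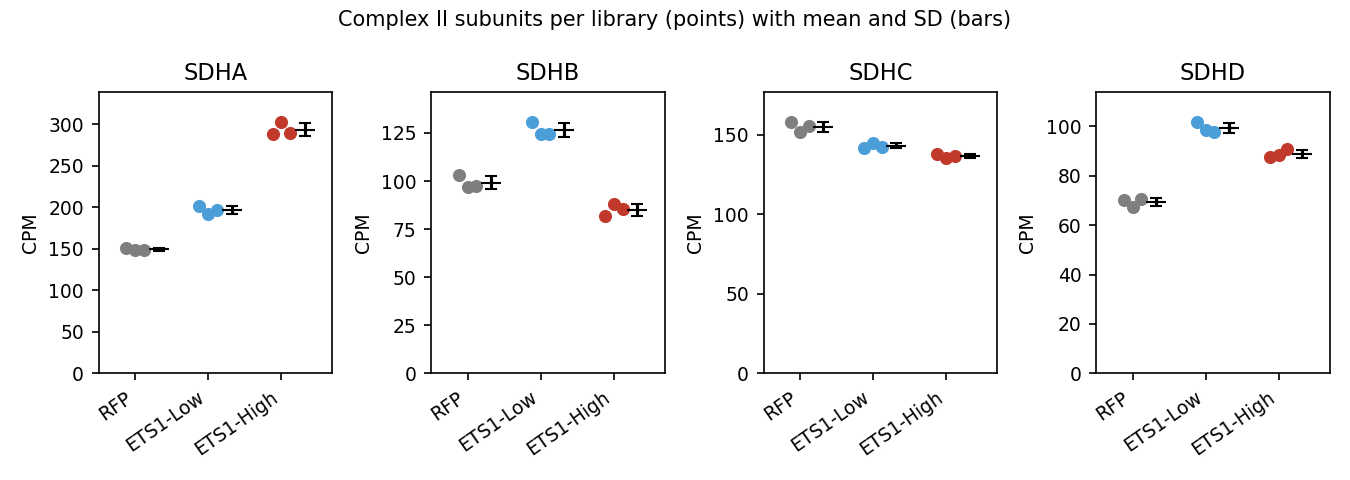
CPM of the 4 complex II subunits in each library (points), with the mean and SD of each group (bars, n = 3). SDHA climbs from a mean of 149.4 (RFP) to 293.7 CPM (ETS1-High), SDHB is highest in ETS1-Low and lowest in ETS1-High, SDHC declines slightly and SDHD is highest in ETS1-Low.

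Complex III passes electrons from ubiquinol to cytochrome c. All 9 nuclear members passed in ETS1-High against ETS1-Low, and all 9 were lower, with log2 changes from -0.45 to -0.12. Their libraries did not overlap, which held for 31.1% of all genes in that direction. Against RFP, 2 were higher and 5 lower in ETS1-High, and 7 higher and 2 lower in ETS1-Low. UQCRQ, the subunit whose promoter is printed above, fell most: 104.6, 104.0 and 100.4 CPM in RFP, 74.4, 73.4 and 68.3 CPM in ETS1-Low, and 65.1, 67.4 and 65.7 CPM in ETS1-High. The groups did not overlap, and the log2 changes were -0.52 for ETS1-Low and -0.64 for ETS1-High. UQCRC2, a core protein, fell from 195.1 ± 2.90 CPM to 166.0 ± 2.97 CPM and 138.8 ± 5.11 CPM, by 0.49 in ETS1-High and by 0.23 in ETS1-Low.

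The Rieske iron-sulfur protein UQCRFS1 rose by 0.28 in ETS1-High and 0.46 in ETS1-Low, and the small subunit UQCR10 by 0.24 and 0.48. UQCRH, the hinge protein that contacts cytochrome c1, read 212.0 ± 2.37, 248.1 ± 5.69 and 182.7 ± 3.70 CPM from RFP to ETS1-Low to ETS1-High. That was a rise of 0.23 in ETS1-Low and a fall of 0.21 in ETS1-High. UQCRHL, a close copy of UQCRH on the same chromosome, read 15.8 ± 0.59, 18.6 ± 0.67 and 13.6 ± 0.21 CPM, and its changes were 0.23 and -0.22. The rise of UQCRHL did not pass with library totals alone (0.10; adjusted p 0.105, edgeR) or on FPKM. The authors' counting could divide reads between these copies, so the values of UQCRHL are uncertain. UQCRB, a ubiquinone-binding protein, had the same order, at 238.1 ± 4.41, 277.3 ± 2.48 and 210.7 ± 9.09 CPM.

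Complex IV reduces oxygen. Its 11 nuclear members included 3 higher and 7 lower in ETS1-High against RFP, and 5 higher and 4 lower in ETS1-Low. Within ETS1-High against ETS1-Low 1 was higher and 9 lower. COX6C fell most: 116.4, 117.1 and 116.2 CPM in RFP, 91.4, 90.1 and 89.4 CPM in ETS1-Low, and 69.6, 67.7 and 72.4 CPM in ETS1-High. The groups did not overlap, and the log2 change was -0.74 (SE 0.03; adjusted p 1.82e-26, edgeR) in ETS1-High and -0.37 in ETS1-Low. COX7C fell by 0.50 and by 0.39. From ETS1-Low to ETS1-High COX7C fell by 0.11. That call was lost without the second ETS1-High library (adjusted p 0.0882, edgeR) and on FPKM (log2 change -0.050, adjusted p 0.353, limma).

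COX5A, a subunit on the matrix side, crossed RFP like SDHB. Its levels were 115.3, 115.8 and 120.1 CPM in RFP, 150.4, 144.3 and 140.3 CPM in ETS1-Low, and 95.2, 98.3 and 101.5 CPM in ETS1-High. ETS1-Low lay above RFP by 0.31 and ETS1-High below it (log2 change -0.25), and the step between them was -0.56 (SE 0.03; adjusted p 8.86e-21, edgeR). COX5B, a zinc-binding subunit, rose by 0.31 in ETS1-High and 0.20 in ETS1-Low, where the call was lost with library totals alone (0.064; adjusted p 0.133, edgeR) and on FPKM (0.050; adjusted p 0.323, limma). COX7A2L, which takes part in joining complexes III and IV into supercomplexes, rose by 0.20 and 0.45.

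Isoform use remained that of the ubiquitous forms. COX4I1, COX6A1, COX6B1, COX7A2, COX7B and COX8A had group means of 68.1 to 163.9 CPM, while COX4I2, COX6A2, COX7A1 and COX7B2, tissue or hypoxia-linked partners, were listed at 0 in every library. Of the partners of COX6B1 and COX8A, COX6B2 had at most 16 counts in a library and COX8C at most 1. COX4I1, the nucleus-encoded subunit with an oxygen-regulated partner, fell by 0.21 in ETS1-High, from 132.4 ± 1.43 to 114.6 ± 3.26 CPM. COX6A1 fell by 0.32 and COX7A2 by 0.26 in ETS1-High, and by 0.15 and 0.12 in ETS1-Low. COX7B fell by 0.15 in ETS1-High, and read -0.05 in ETS1-Low. COX6B1 rose by 0.14 in ETS1-High, where its libraries overlapped RFP, and by 0.23 in ETS1-Low. The call in ETS1-High was lost with library totals alone (0.035; adjusted p 0.363, edgeR) and on FPKM (0.035; adjusted p 0.415, limma), and that in ETS1-Low on FPKM (0.083; adjusted p 0.0707, limma). COX8A rose by 0.21 in ETS1-Low, a call lost on FPKM (0.055, adjusted p 0.0786, limma), and read -0.04 in ETS1-High. In ETS1-High it was a called fall with library totals alone (log2 change -0.15), with upper-quartile factors (-0.10) and on FPKM (-0.15). NDUFA4, listed under complex I by its name and known as a subunit of complex IV, fell by 0.19 in ETS1-High and read 0.02 in ETS1-Low, where library totals gave a called fall (log2 change -0.11).

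Complex V makes ATP. Of its 17 nuclear members, 5 were higher and 8 lower in ETS1-High against RFP, 10 higher and 4 lower in ETS1-Low, and 1 higher and 13 lower in ETS1-High against ETS1-Low. ATP5B, the catalytic beta subunit and the most abundant nuclear member, read 836.4, 806.4 and 846.8 CPM in RFP, 883.3, 857.0 and 868.9 CPM in ETS1-Low, and 750.3, 760.8 and 750.9 CPM in ETS1-High. It fell in ETS1-High (-0.14; adjusted p 3.33e-05, edgeR). In ETS1-Low its change was 0.07 (adjusted p 0.0328, edgeR), but with library totals alone it was a called fall (-0.065; adjusted p 0.0187, edgeR). On FPKM it was -0.027, and the call was also lost with DESeq2, with upper-quartile factors and without ETS1-Low replicate 1 or 3 or RFP replicate 2, so no direction is given for ATP5B in ETS1-Low. ATP5C1, the gamma subunit of the rotor shaft, whose promoter is printed above, read 150.5 ± 0.48 CPM (SD, n = 3) in RFP, 171.4, 174.6 and 169.1 CPM for ETS1-Low, and 121.9, 130.6 and 128.1 CPM for ETS1-High. The 3 groups did not overlap. It changed by 0.19 in ETS1-Low and by -0.25 in ETS1-High, and the rise in ETS1-Low did not pass with library totals alone (log2 change 0.06; adjusted p 0.0643, edgeR) or on FPKM.

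ATP5G1 and ATP5F1 also had their lowest level in ETS1-High. ATP5G1, which encodes the c ring, read 66.5 ± 2.13, 74.0 ± 2.53 and 54.7 ± 2.83 CPM from RFP to ETS1-Low to ETS1-High, and ATP5F1, the b subunit of the stalk, 214.7 ± 4.16, 218.4 ± 3.55 and 169.5 ± 1.98 CPM (SD, n = 3). In ETS1-High against RFP they fell by 0.28 and 0.34. The rise of ATP5G1 in ETS1-Low (0.15) was not called with library totals alone (0.02; adjusted p 0.598, edgeR). ATP5G3, another gene for the c ring, rose instead, from 169.4 ± 2.84 CPM to 199.3 ± 3.27 and 210.0 ± 2.27 CPM. The peripheral stalk gene ATP5H fell by 0.33 in ETS1-High and by 0.14 in ETS1-Low, and ATP5E, the epsilon subunit, by 0.18 and by 0.24. The delta subunit gene ATP5D rose most, from 48.0 ± 1.02 CPM to 75.3 ± 2.22 CPM for ETS1-Low and 67.2 ± 1.90 CPM for ETS1-High, by 0.65 and 0.49. ATP5SL, which is matched by name but is an assembly protein and no subunit, rose by 0.64 and 0.28.

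A pattern shared across complexes was where the genes lie. For each nuclear member, the median log2 change of the tested genes within 10 Mb on either side, members left out, was taken as the change of its neighbourhood. Member and neighbourhood changes correlated over the 78 genes at r of 0.67 in ETS1-High against RFP, 0.76 in ETS1-Low against RFP and 0.75 between both ETS1 groups. These are descriptions across genes that share libraries and, in part, neighbours. The same correlation was not computed over all tested genes, so the pattern may not be particular to these members. Calls by chromosome stand beside 37.9% of all genes called higher in ETS1-Low, and 37.0% higher and 37.2% lower in ETS1-High. All 11 members on chromosome 19 were called higher in ETS1-Low, where the chromosome's median was 0.32, and 7 were called higher and none lower in ETS1-High. On chromosome 11, all 7 were called higher in ETS1-Low, beside a chromosome median of 0.36. On chromosome 1, all 7 were called lower in ETS1-High, beside a median of -0.04.

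Chromosome 5 held the strongest contrast. Its median was -0.36 in ETS1-High and -0.39 in ETS1-Low, and 5 of its 6 members (NDUFS4, NDUFS6, NDUFA2, UQCRQ and COX7C) fell in both, by 0.50 to 0.78 in ETS1-High. SDHA, the other member, rose, although its neighbourhood had a median of -0.32 in ETS1-Low and -0.28 in ETS1-High. NDUFS6, on the same arm, had the same neighbourhood median of -0.28 in ETS1-High. On chromosome 9, NDUFA8 and NDUFB6 fell in both groups, and the chromosome's median was -0.54 in ETS1-Low and -0.07 in ETS1-High. The part of the neighbourhood in any member's change was not tested.

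After subtracting the neighbourhood, 63 of 78 members lay below 0 in ETS1-High against RFP, with a median difference of -0.17. For ETS1-Low and RFP 40 lay below 0, with a median of -0.02. From ETS1-Low to ETS1-High 71 of 78 lay below 0, with a median of -0.17. Without subtraction the nuclear median from ETS1-Low to ETS1-High was -0.16. The part of the neighbourhood in that difference was not tested, and no figure over all genes stands beside these counts. In the same comparison, all 9 members of complex III and all 11 of complex IV lay below 0 after subtraction. These included COX5B, which was called higher (0.12) before it, although its libraries overlapped. That call was lost without ETS1-High replicate 2 (adjusted p 0.116, edgeR) or ETS1-Low replicate 3 (adjusted p 0.0864, edgeR).

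**Figure D5:**
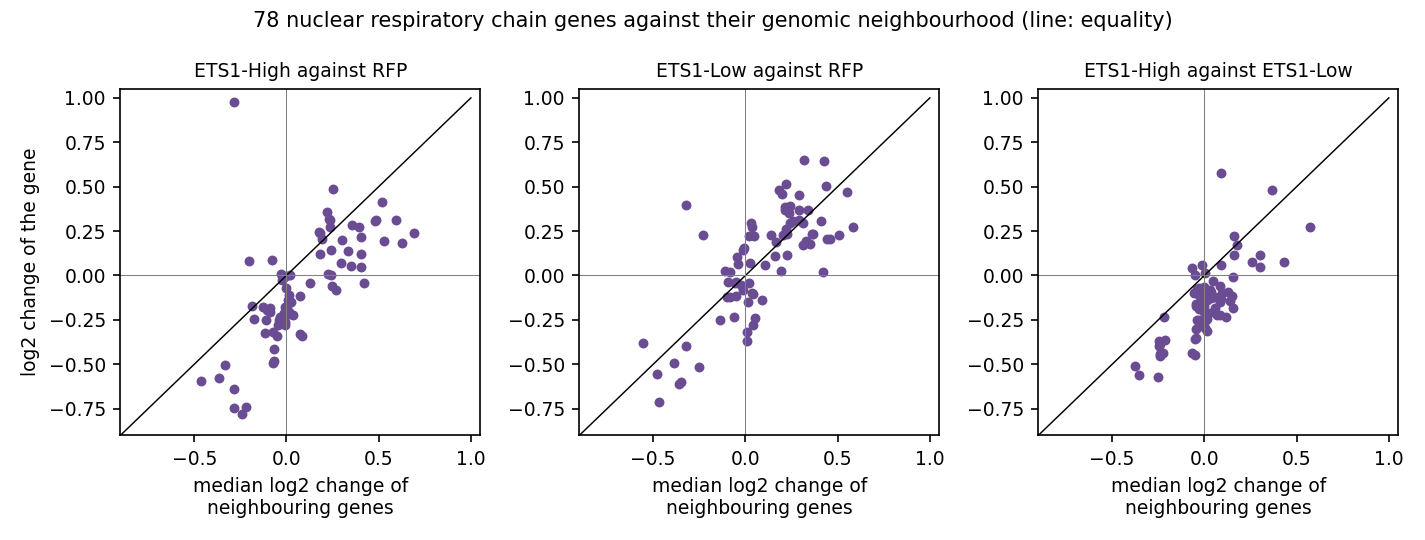
Log2 change of each of the 78 nuclear members (vertical axis) against the median log2 change of the other genes within 10 Mb (horizontal axis), in the 3 comparisons. The line marks equality. Points follow the line with r of 0.67, 0.76 and 0.75, lie mostly below it in the left and right panels (63 and 71 of 78), and SDHA stands alone at the upper left of the left panel.

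Regulators of these genes were examined from lists of general knowledge, and moved in several directions. The counts of called genes in each list below stand beside 37.0% higher and 37.2% lower over all genes in ETS1-High, and 37.9% and 36.2% in ETS1-Low. GABPA, the DNA-binding ETS-family subunit of GABP, rose from 54.8 ± 2.35 CPM for RFP to 74.8 ± 4.24 CPM for ETS1-Low and 79.3 ± 1.36 CPM for ETS1-High (SD, n = 3), by 0.45 and 0.53. Its partner GABPB1 read 26.4 ± 1.40, 26.1 ± 0.26 and 24.3 ± 0.76 CPM, with a called fall of 0.12 in ETS1-High that was lost in 4 of the 9 fits that left out a library (without RFP replicate 1 or 3, or ETS1-High replicate 1 or 2). NRF1 did not pass in any comparison (23.7 ± 0.39, 23.7 ± 1.00 and 24.6 ± 0.87 CPM). PPARGC1A, a coactivator of mitochondrial biogenesis, had at most 2 counts in any library and was not tested. PPARGC1B, its relative, fell from 46.95, 43.5 and 45.7 CPM in RFP to between 19.8 and 22.6 CPM in ETS1-Low and between 14.04 and 15.2 CPM in ETS1-High, by 1.10 and 1.65 on the log2 scale. PPRC1, the third of that family, fell by 0.58 in ETS1-High and by 0.10 in ETS1-Low.

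Among 17 genes for proteins that copy and read the mitochondrial genome, 12 were higher and 3 lower in ETS1-Low, and 5 higher and 9 lower in ETS1-High, with medians of 0.21 and -0.13. TFAM, which packages mitochondrial DNA and starts its transcription, read 89.1, 78.3 and 81.4 CPM in RFP, 108.3, 103.9 and 103.1 CPM in ETS1-Low, and 81.8, 81.3 and 80.1 CPM in ETS1-High. ETS1-High overlapped RFP and ETS1-Low lay above both, by 0.34 over RFP. POLRMT, the mitochondrial RNA polymerase, changed by 0.31 in ETS1-Low and 0.03 in ETS1-High, and LRPPRC, which stabilises mitochondrial messages, by 0.27 and -0.02, where neither passed in ETS1-High. With library totals alone POLRMT (log2 change -0.072, adjusted p 0.046, edgeR), LRPPRC (-0.12) and TFAM (-0.14) were called lower in ETS1-High. With upper-quartile factors TFAM (-0.094, adjusted p 0.0155, edgeR) and LRPPRC (-0.077, adjusted p 0.0144, edgeR) were called lower there too. On log2(FPKM + 1) so were TFAM (-0.19, adjusted p 0.0117, limma), LRPPRC (-0.11, adjusted p 0.00377, limma) and POLRMT (-0.16, adjusted p 0.00754, limma). The transcription factor TFB2M fell by 0.16 in ETS1-High and by 0.28 in ETS1-Low. The replicative helicase TWNK fell by 0.83 and by 0.43, and MTERF1, which binds at the end of the rRNA genes, rose by 0.54 and 0.59.

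Genes for mitochondrial RNA processing and stability numbered 35, of which 9 were higher and 19 lower in ETS1-High and 15 higher and 11 lower in ETS1-Low. PTCD2, linked to processing of the MT-CYB message, fell by 0.80 in ETS1-High and by 0.42 in ETS1-Low, and REXO2, a nuclease for short RNA, rose by 0.65 and 0.47. Of 48 assembly factors, 10 were higher and 24 lower in ETS1-High, and 18 higher and 14 lower in ETS1-Low. COX20, a chaperone for MT-CO2 protein, changed most, from 12.2, 11.8 and 12.5 CPM in RFP to 33.6, 32.9 and 31.5 CPM in ETS1-Low and 40.5, 39.7 and 42.0 CPM in ETS1-High, rises of 1.42 and 1.74. SDHAF4, which assists the assembly of SDHA, fell from 8.82 ± 0.61 CPM to 4.38 ± 0.42 and 3.74 ± 0.17 CPM (SD, n = 3), by 1.01 and 1.24. COX15, needed for haem A, fell by 0.57 in ETS1-High. Its change of 0.10 in ETS1-Low passed, but was -0.032 with library totals alone.

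Other routes of electrons into the chain included a large rise. GPD2, the mitochondrial glycerol-3-phosphate dehydrogenase, which feeds electrons to ubiquinone, rose from 28.8, 30.2 and 27.97 CPM in RFP to 81.5, 77.0 and 79.0 CPM in ETS1-Low and 86.5, 84.6 and 86.0 CPM in ETS1-High. Its log2 changes were 1.45 and 1.57. SQRDL, the sulfide dehydrogenase that also reduces ubiquinone, rose by 1.18 and 1.04. In that list of 24, 7 genes were higher and 13 lower in ETS1-High, and 15 higher and 7 lower in ETS1-Low. The tricarboxylic acid cycle had 6 genes higher and 14 lower of 22 in ETS1-High, and 7 and 7 in ETS1-Low. Malate dehydrogenase MDH2 fell by 0.49 and by 0.37 in ETS1-High and ETS1-Low.

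Promoter windows of 300 bases (250 before to 50 after the start) were found in the RefSeq table for 63 of the 78 nuclear members. The RefSeq start did not always lie at the edge of the GENCODE 44 gene. The NDUFA5 window (chr7:123601562-123601861, minus strand) lay outside that gene (123536997 to 123557904). Those of NDUFS3, NDUFV3 and COX7A2L lay within their genes. Such windows are included in the shares and medians below. Of these, 30.2% held the ETS core CCGGAAG, against 10.3% of all 35116 windows in the table. The NRF1 motif stood in 23.8% against 5.78%, the YY1 motif AAGATGGCG in 14.3% against 1.75%, and the CRE motif TGACGTCA in 7.94% against 1.85%. Both strands were searched. A window may hold several motifs, and the last 3 letters of the ETS core are also the first 3 of the YY1 motif. The 19 members with the ETS core had a median log2 change of 0.00 in ETS1-High against RFP and 0.21 in ETS1-Low, and the 44 without it -0.03 and 0.17. Between the ETS1 groups they were -0.17 and -0.14. The difference between members with and without the core was not tested.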

How the data were processed

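RNA-seq was measured in 9 libraries. The authors deposited RSEM expected counts and RSEM FPKM values per gene, per the file headers; FPKM is scaled to gene length and depth. The submitters' processing notes name cutadapt 4.4, STAR 2.7.3, featureCounts (Subread 2.0.3), limma 3.38.3 and GRCh38, without roles. The RSEM version and annotation are not given in the sources used here. Columns matched libraries by name, and 0 were left unmatched.

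Expected counts were rounded and tested with edgeR 4.0.16 (R 4.3.3; quasi-likelihood, robust, TMM, filterByExpr by group, Benjamini-Hochberg over 17235 genes, called at an adjusted p under 0.05), with all 9 libraries in a single fit on group, tested on simulated data first. Log2 changes are from this fit, with SE from the F statistic. CPM uses TMM library sizes, as mean ± SD. Positions are those of GENCODE 44. The members, gene lists and tests were chosen with earlier results of these data known. Named were all mitochondrial members, complex II, genes with isoform partners, per complex the 2 largest called changes each way without overlap, selected regulators, and the 3 smallest p per mitochondrial list in ETS1-High against RFP. Lists of general knowledge covered regulators, transcription, RNA processing, assembly, electron carriers, tricarboxylic acid cycle, import, dynamics, mitoribosome, ATF4 targets and cell types. Alternatives used DESeq2 1.42.0 and limma 3.58.1.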

Additional observations from a re-analysis of the deposited data

Results flagged for a closer look

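For 10 nuclear members the call against RFP pointed in opposite directions in ETS1-Low and ETS1-High (edgeR). Members so selected differ between the ETS1 groups almost by definition. Their called difference and lack of overlap between those groups, seen for all 10, therefore add no support. The share of all genes with such opposite calls is not given here. Over all genes, 37.0% were called higher and 37.2% lower in ETS1-High, and 37.9% and 36.2% in ETS1-Low. In the edgeR fit with TMM, ETS1-Low was above RFP and ETS1-High below it in 9 of the 10 members. ATP5B is among these 9, although no direction is given for it in ETS1-Low above. The log2 change from ETS1-Low to ETS1-High was -0.57 for SDHB, -0.56 for COX5A, -0.45 for UQCRHL, -0.44 for UQCRH, -0.44 for ATP5C1, -0.43 for ATP5G1, -0.40 for UQCRB, -0.39 for NDUFS5 and -0.21 for ATP5B. NDUFV3, an accessory subunit of complex I, had the other order, with 36.0 ± 0.44 CPM for RFP, 33.6 ± 0.94 CPM for ETS1-Low and 39.2 ± 1.3 CPM for ETS1-High (SD, n = 3) and a change of 0.22. NDUFS5, also of complex I, read 178.4 ± 5.40, 192.2 ± 0.46 and 147.1 ± 4.53 CPM. The opposite directions against RFP depend on scaling: with library totals alone 4 of the 10 kept them (SDHB, COX5A, UQCRH and UQCRB), and on log2(FPKM + 1) 5 did (these and NDUFV3). ATP5B and NDUFS5 turned direction in ETS1-Low under both, and ATP5C1, ATP5G1 and UQCRHL lost their call there. With upper-quartile factors 7 of the 10 kept them, and with 1 library left out 8 to 10, the losses being ATP5B and NDUFV3.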

How the results depend on the processing

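Scaling moved the medians most. Between ETS1-High and RFP the mitochondrial median of 0.27 became 0.17 with library totals alone and 0.17 on every FPKM setting, and the nuclear median of -0.06 became -0.17 with library totals, -0.12 with upper-quartile factors and -0.17 on FPKM. Between ETS1-Low and RFP the mitochondrial median of 0.34 became 0.20 with library totals, 0.29 with upper-quartile factors and 0.20 on FPKM, and the nuclear median of 0.16 became 0.032, 0.11 and 0.014. Between the ETS1 groups the nuclear median of -0.16 became -0.13 with library totals and -0.12 on FPKM. The counts of nuclear members in ETS1-Low became 34 lower with library totals and 26 higher on FPKM with either pseudocount (1 or 0.1), or 22 higher without the FPKM filter. That setting also gave 16 nuclear members higher and 6 mitochondrial members called in ETS1-High. Mitochondrial members called between the ETS1 groups were 1 rather than 2 with DESeq2, DESeq2 size factors, library totals, FPKM or only the groups compared, and 1 to 6 when a library was left out. The log2 ratio of mitochondrial to nuclear counts in ETS1-Low, 0.26, was 0.22 as a mean of log2 levels and 0.30 with mitochondrial rRNA added, which also lowered the step between the ETS1 groups from 0.13 to 0.038. The rRNA setting and the ones without single genes were added after the data were seen. Neither these nor the mean of log2 levels changed anything else by more than a library SD.

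Among the genes named by the rule or in the text, those reversed on FPKM were NDUFS1 (-0.11 for ETS1-High, -0.038 for ETS1-Low and -0.073 between them, or -0.11, -0.039 and -0.075 with a pseudocount of 0.1), POLRMT (-0.16, or -0.17 with 0.1) in ETS1-High, and ATP5B (-0.027), ATP5F1 (-0.085), ATP5G1 (-0.0097, or -0.0098 with 0.1) MT-ATP8 (-0.016), NDUFS5 (-0.042) and IDH2 (-0.12) in ETS1-Low. Those reversed with library totals were POLRMT in ETS1-High (-0.072) and, in ETS1-Low, ATP5F1 (-0.11), ATP5B (-0.065), NDUFA4 (-0.11), NDUFS5 (-0.025), COX15 (-0.032), IDH2 (-0.11) and NRF1 (-0.13). The cause was not tested.

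The replicate numbers did not pair the libraries: deviations from group means correlated at -0.03 to 0.03 within a number. With the replicate block the calls were 12, 11 and 3 for mitochondrial and 62, 66 and 63 for nuclear members, in the order of the report's comparisons.

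Leaving out each library in turn kept the nuclear counts at 60 to 63 in ETS1-High, 64 to 66 in ETS1-Low and 58 to 63 between them. Every member had at least 541 counts per library. The parts of counting noise and of the spread between libraries in the precision were not separated.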

Other observations

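Over all genes, 37.0% were called higher and 37.2% lower in ETS1-High against RFP, 37.9% and 36.2% in ETS1-Low, and 29.9% and 29.3% between the ETS1 groups, and the counts of called genes below stand beside these shares. Of 77 tested genes of the mitochondrial ribosome, which translates the 13 mitochondrial messages, 29 were higher and 36 lower in ETS1-High against RFP, 43 higher and 18 lower in ETS1-Low, and 6 higher and 50 lower between ETS1-Low and ETS1-High. Their medians were -0.07, 0.16 and -0.20. MRPS5 and MRPL17 rose in both ETS1 groups, by 0.62 each in ETS1-High and by 0.64 and 0.65 in ETS1-Low, while MRPS27 fell by 0.58 in ETS1-High and by 0.11 in ETS1-Low.

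Targets of ATF4, the factor of the integrated stress response that also answers mitochondrial stress, were lower in ETS1-High. Of 22 tested, 3 were higher and 16 lower against RFP, with a median of -0.46, and 7 were higher and 9 lower in ETS1-Low, with a median of 0.01. ASNS, asparagine synthetase, read 130.4 ± 4.93 CPM for RFP, 57.0 ± 2.10 CPM for ETS1-Low and 37.2 ± 1.11 CPM for ETS1-High (SD, n = 3), falls of 1.19 in ETS1-Low and 1.81 in ETS1-High on the log2 scale. SESN2 fell by 0.52 in ETS1-Low and by 1.44 in ETS1-High. SLC7A11, the cystine transporter, went up instead, by 1.49 in ETS1-Low and 1.16 in ETS1-High.

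Import and chaperone genes had 13 higher and 19 lower of 37 in ETS1-High and 20 and 12 in ETS1-Low. VDAC2, an outer membrane channel, fell by 0.76 and by 0.17, in the same order, and the chaperone HSPA9 by 0.38 and by 0.09, the last of which was lost without RFP replicate 1 or ETS1-Low replicate 2 (adjusted p 0.0642 and 0.0528, edgeR). Of 16 genes for dynamics and mitophagy, 6 were higher and 7 lower in ETS1-High and 8 and 4 in ETS1-Low. The fission factor MFF rose by 0.74 and 0.69, and FIS1, of the same process, fell by 0.42 and by 0.16. The list of 13 tested biogenesis regulators had 6 higher and 4 lower in ETS1-High and 7 and 4 in ETS1-Low, and within it NFE2L2, the antioxidant factor, rose by 0.75 and 0.29.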
